A study of Homo sapiens with 4 samples.

Results

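The AluS loci are the copies of the AluS group of Alu repeats that appear in a table of transposable element (TE) counts from single-cell RNA sequencing of 2 human cancer cell lines. They were chosen by name: a locus is an AluS locus where the family name in its identifier begins with AluS. This rule took 137654 of the 261609 TE loci in the table, which fall into 17 of its 655 families, and it used no measured value. H1299, a non-small cell lung cancer line, and HCT116, a colorectal cancer line, were each grown with the solvent DMSO or with a pair of compounds. The treated cells (DAC+SB here) received the DNA methyltransferase inhibitor DAC (decitabine) at 500 nM over 72 h and the histone deacetylase inhibitor SB939 at 500 nM over 18 h. Medium with compound was renewed every 24 h, and all cultures were between passage 5 and passage 10. For each line and treatment there was 1 library of polyadenylated RNA made with the 5′ chemistry of 10x Genomics, 4 in all, so no comparison has a replicate and no test was made. Intervals in parentheses are exact 95% intervals for counting error only. They treat counts as independent and say nothing about variation between cells, cultures or library preparations.

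Alu elements are short interspersed elements found only in primates and derived from the gene of 7SL RNA, the RNA of the signal recognition particle (SRP). They are transcribed by RNA polymerase III from a promoter inside the element, code for no protein and are copied by the enzymes of L1 elements. AluJ is the oldest of the main groups, AluS lies between, and AluY is the youngest and holds the copies still able to move. Alu copies are rich in CpG dinucleotides, which are usually methylated in somatic cells, and very many lie in the introns and untranslated ends of genes, so that an Alu sequence can also be read as a stretch of a longer RNA polymerase II transcript. The counts do not tell these kinds of RNA apart. The TE counts carry the label tss, which can be read as transcription start site. They may therefore be limited to reads that start at or near a copy. Whether reads from inside longer transcripts were left out was not tested. AluS copies are also close to one another in sequence. The way in which reads with several matches were assigned to a copy, and any use of strand, are details not given in the sources used here, so that the value of a single locus is uncertain in a way the intervals do not cover.

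The HCT116 libraries held 3658 cells with DMSO and 4327 with DAC+SB, with 62639099 and 38927267 gene and TE counts. The H1299 libraries held 3578 and 3726 cells, with 64524196 and 62428673 counts. The treated HCT116 library was the shallowest, with a median of 8449 counts per cell against 15784.5 to 17369.5 in the others, and 1086 of its cells had more than 25% mitochondrial counts, against 88 to 364 in the others. Between 18 and 30 cell barcodes were shared by any pair of libraries, and 131 occurred in more than 1 library. A list of 8 H1299 markers summed to 2543 and 1249 CPM (a count scaled by the gene and TE total of its library) in H1299 DMSO and DAC+SB, against 87.6 and 297 in HCT116. A list of 10 HCT116 markers summed to 530 and 597 CPM in HCT116 DMSO and DAC+SB, against 125 and 398 in H1299. Each list was higher in its own line, by less under DAC+SB.

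AluS made up very unequal shares of TE counts in the 4 libraries. In HCT116 the table held 63379 AluS counts with DMSO (1012 CPM) and 414688 with DAC+SB (10653 CPM). In H1299 it held 338 with DMSO (5.24 CPM) and 217493 with DAC+SB (3484 CPM). As a share of TE counts, AluS was 31.7% (31.5 to 31.9) and 19.1% (19.1 to 19.2) in HCT116 and 0.264% (0.236 to 0.293) and 11.3% (11.2 to 11.3) in H1299, DMSO first. Nearly 1 TE count in 3 was thus AluS in untreated HCT116, above its share in treated HCT116.

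The H1299 DMSO value is not a level of AluS as a whole, because 16 of the 17 families were not listed in that library. Only AluSq10 was listed there. HCT116 DMSO lacked AluSc, AluSc5, AluSc8, AluSz and AluSz6, H1299 DAC+SB lacked AluSz6, and HCT116 DAC+SB listed all 17. The gaps did not follow abundance in the treated libraries: AluSz was unlisted in HCT116 DMSO and held 36696 counts in HCT116 DAC+SB, whereas AluSq4 was listed in HCT116 DMSO with 273 counts. The lowest count of any listed TE class was 20 in each library, and no class below that was listed. What else left a class out was not tested. An unlisted family is therefore read neither as 0 nor as low, and unless stated otherwise a ratio was taken over family classes listed in both libraries of a comparison (a class is a family name with the number after it in the identifier, a number not explained in the sources used here). The family values given for comparison, over all TE families and over AluY families, instead sum every listed class of a family. All AluS counts carried the number 1, except 187 of the 338 in H1299 DMSO, which were AluSq10 with the number 14. Of all TE counts with the number 1, AluS made up 92.0% in HCT116 DMSO, 79.5% in HCT116 DAC+SB, 65.5% in H1299 DAC+SB and 2.67% in H1299 DMSO.

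In HCT116 every AluS family with a value in both libraries was higher with DAC+SB. Over the 12 such families together the log2 ratio of DAC+SB to DMSO was 3.08 (3.07 to 3.09). All 12 were at least 4-fold higher, with a median log2 ratio of 3.25 and a range of 2.75 to 4.02. Over all TE families with a value in both libraries, 93 of 199 (46.7%) passed 4-fold and 73.4% passed 2-fold, with a median of 1.91 and a range of -3.15 to 8.93. The AluS families thus lay close together within a wide spread. Set against TE counts alone the direction of the 12 together turned, to -1.04, or -0.94 with the TE counts of the same classes. For the 11 AluY families with values in both, 10 passed 4-fold and the median was 3.43.

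The Sg families, a branch of 3 names, had like ratios. AluSg went from 10369 counts (166 CPM) to 60937 (1565 CPM), a log2 ratio of 3.24 (3.21 to 3.27). AluSg4 went from 36.7 to 331 CPM (3.17, 3.11 to 3.24) and AluSg7 from 18.9 to 208 CPM (3.46, 3.37 to 3.55). The AluSg4 value leaned on 1 copy: locus 5229827 held 40.2% of the family's DMSO counts, and without it the log2 ratio was 3.58. AluSp, the family with most counts in treated H1299, went from 144 to 1382 CPM in HCT116, a log2 ratio of 3.27 (3.23 to 3.30).

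The Sq families held both ends of the AluS range as counted. AluSq2 had the lowest ratio of the 12, from 7538 counts (120 CPM) to 31532 (810 CPM), a log2 ratio of 2.75 (2.71 to 2.79). Locus 151965 held 18.3% of its DMSO counts, and without it the value was 3.01. With each family's highest locus left out, AluSx was lowest (2.87), and with each locus counted once per cell AluSx1 was (2.76), so the place of AluSq2 at the low end was not kept. AluSq4 had the highest ratio, from 273 counts (4.36 CPM) to 2761 (70.9 CPM), a log2 ratio of 4.02 (3.84 to 4.21), and without its locus with most counts 3.80. AluSq went from 27.8 to 202 CPM (2.86, 2.78 to 2.93). AluSq10, the smallest family, went from 152 counts (2.43 CPM) to 1280 (32.9 CPM), a log2 ratio of 3.76 (3.52 to 4.01).

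The Sx families included the most abundant AluS family of untreated HCT116. AluSx went from 12934 counts (206 CPM) to 59486 (1528 CPM), a log2 ratio of 2.89 (2.86 to 2.92). AluSx1 was close to it at 171 and 1254 CPM (2.87, 2.84 to 2.91). AluSx3 went from 77.4 to 782 CPM (3.34, 3.29 to 3.38) and AluSx4 from 37.2 to 392 CPM (3.40, 3.33 to 3.46). AluSx and AluSx1 thus stood lower than AluSx3 and AluSx4 by more than counting error. The 5 families unlisted in HCT116 DMSO reached 571 CPM (AluSc), 78.5 (AluSc5), 300.3 (AluSc8), 943 (AluSz) and 203 (AluSz6) in HCT116 DAC+SB, and no ratio was computed for them.

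**Figure D1:**
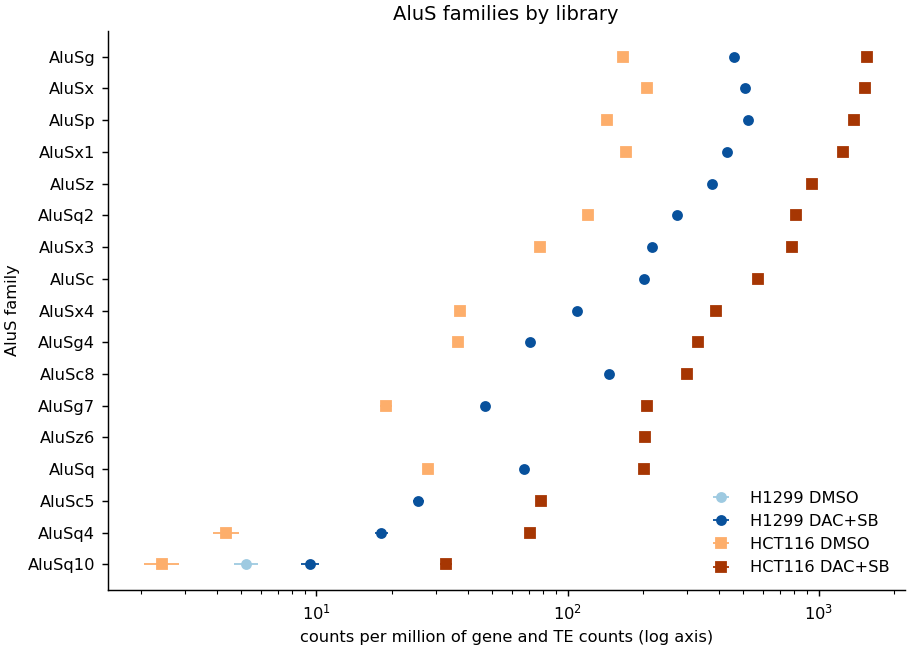
CPM (log axis) of each of the 17 AluS families, ordered by the HCT116 DAC+SB value, with 1 point per library (circles H1299, squares HCT116; pale DMSO, dark DAC+SB) and bars for the exact 95% Poisson interval of the counts; a missing point is an unlisted family. HCT116 DAC+SB lies highest in every family, at 32.9 to 1565 CPM, and the only H1299 DMSO point is AluSq10 at 5.24 CPM.

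In H1299 the change with DAC+SB could be read in 1 family. AluSq10 had 338 counts (5.24 CPM) with DMSO and 589 (9.43 CPM) with DAC+SB. Over every AluSq10 count the log2 ratio was 0.85 (0.65 to 1.05), and over the class listed in both libraries, 151 and 589 counts, it was 2.01 (1.75 to 2.28). Of all TE families with a value in both H1299 libraries, each over all its listed classes, 42 of 186 (22.6%) were at least 4-fold higher. The choice of class thus moved the AluSq10 value across the 4-fold line. Set against TE counts alone the direction turned, to -1.95, or -1.79 with the TE counts of the same classes. Without the 5% of cells highest in AluS the value was 3.25. Only 299 of 3578 DMSO cells had any AluS count, so leaving out the highest had to remove a large part of the DMSO counts. Nothing is concluded from that value. From these libraries nothing can be said about DAC+SB and the other 16 families in H1299. With DAC+SB, those listed in H1299 ran from 18.1 CPM (AluSq4) and 25.5 CPM (AluSc5) to 509 CPM (AluSx) and 522 CPM (AluSp).

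The treated lines could be compared over 16 families, and all 16 were higher in HCT116 DAC+SB than in H1299 DAC+SB. Together they gave a log2 ratio of HCT116 to H1299 of 1.58 (1.58 to 1.59). All 16 passed 2-fold and 2 passed 4-fold. Over all 261 TE families with a value in both treated libraries, 42.1% passed 2-fold and 13.4% passed 4-fold, and the median log2 ratio was 0.81, against 1.61 for the AluS families. The 2 above 4-fold were AluSg4, at 70.9 CPM in H1299 and 331 in HCT116 (2.22, 2.18 to 2.27), and AluSg7, at 47.0 and 208 CPM (2.14, 2.08 to 2.20). The call for AluSg4 rests on locus 5229827. Without the highest locus of each library AluSg4 was at 66.2 and 264 CPM, a log2 ratio of 1.99, under 4-fold, and with each locus counted once per cell it was at 1.91, while AluSg7 was at 2.14 and 2.04. AluSc8 had the lowest ratio, at 146 and 300.3 CPM (1.04, 1.00 to 1.08), which once per cell was 0.97, under 2-fold, followed by AluSz at 377 and 943 CPM (1.32, 1.30 to 1.35).

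AluY did not share this difference to the same size. Of its 20 families with values in both treated libraries, 1 (AluYj4, 1.07) was at least 2-fold higher in HCT116, and the median log2 ratio was 0.27. AluYa5 and AluYb8, young branches that account for most known new Alu insertions in people, were at -0.17 (-0.25 to -0.09) and -0.14 (-0.23 to -0.05). The largest AluY family, AluY, was at 0.83 (0.81 to 0.84), below the lowest AluS family. Summed over all listed families, the log2 ratio was 1.61 (1.61 to 1.62) for AluS, 0.74 (0.73 to 0.75) for AluY and 0.50 (0.50 to 0.51) for LTR12C, the long terminal repeat with most counts after treatment. As a share of TE counts, the 16 AluS families listed in both treated libraries were 0.74 higher in HCT116 on the log2 scale. AluJ could not be compared, since its only listed family, AluJb_short_, had 138 counts in HCT116 DAC+SB and none listed elsewhere.

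**Figure D2:**
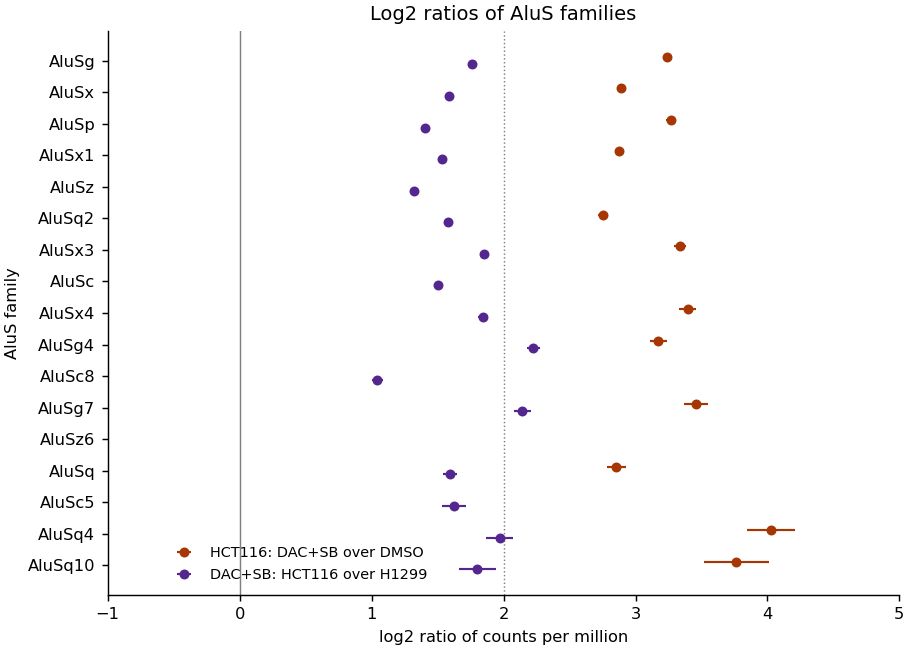
Log2 ratio of CPM for each AluS family, for DAC+SB over DMSO in HCT116 (orange, 12 families) and for HCT116 over H1299 under DAC+SB (purple, 16 families), with bars for exact 95% counting intervals, a solid line at 0 and a dotted line at 4-fold. The HCT116 treatment ratios lie between 2.75 and 4.02, and the ratios between the treated lines between 1.04 and 2.22.

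The order of the families was nearly the same in both treated lines. Over the 16 families Spearman's rho of the CPM values was 0.98, a description of families that differ widely in the number of copies. AluSp, AluSx, AluSg, AluSx1 and AluSz held 66.1% of AluS counts in H1299 DAC+SB and 62.6% in HCT116 DAC+SB. In H1299 DAC+SB the order began AluSp (522 CPM), AluSx (509), AluSg (461) and AluSx1 (433), with AluSz (377) next. In HCT116 DAC+SB it began AluSg (1565), AluSx (1528), AluSp (1382) and AluSx1 (1254). Neighbours in these orders differed by more than counting error. The first place of AluSp in H1299 rests on locus 2447104, since without each family's highest locus AluSp was at 468 CPM and AluSx at 502.

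AluS counts were spread over very many copies with few counts each. Loci with at least 1 count numbered 22918 in untreated and 88965 in treated HCT116, and 148 in untreated and 68179 in treated H1299. With each library thinned to the 38927267 counts of the shallowest, they numbered 16755, 88965, 111 and 51045 in the same order. The median AluS locus had 1 count in each library, and loci with exactly 1 count made up 62.9% in untreated HCT116, 50.7% in treated HCT116 and 58.8% in treated H1299. Single-count loci were also common elsewhere, at 53.0%, 51.3% and 49.8% of other TE loci and 71.3%, 53.0% and 54.0% of AluY loci in the same order. They were less common in LTR12C, at 39.8%, 2.60% and 5.39%. Treated HCT116 thus showed more AluS copies than untreated HCT116, and also more counts on each: 4.66 against 2.35 per locus after thinning, with 2.66 in H1299 DAC+SB. Of the 88965 and 16755 thinned loci in HCT116, families listed with both treatments held 66477 and 16755.

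Few copies were abundant. Those with at least 100 counts numbered 37 in untreated HCT116, 304 in treated HCT116, 0 in untreated H1299 and 121 in treated H1299. After thinning to equal totals they numbered 19, 304, 0 and 56. Before thinning, 304 of 88965 AluS loci reached 100 counts in treated HCT116 and 121 of 68179 in treated H1299. Of TE loci other than AluS, 1867 of 76298 and 1544 of 62824 did, a larger share in both lines. LTR12C made up 990 and 838 of these other loci. The 100 highest loci held 21.6% (21.3 to 21.9) of AluS counts in untreated HCT116, 10.0% (9.95 to 10.1) in treated HCT116 and 11.5% (11.3 to 11.6) in treated H1299. The same number of LTR12C loci held 57.7% and 55.0% of LTR12C counts in treated H1299 and HCT116, and of AluY loci 15.7% and 14.1% of AluY counts. LTR12C also had 523 and 443 counts per locus in the treated libraries, against 3.78 and 3.85 for AluY. This measure depends on the number of loci with a count, which in treated HCT116 was 88965 for AluS, 26468 for AluY and 2310 for LTR12C. At an equal fraction, the highest 5% of loci, AluS held 44.3% of its counts in treated H1299 and 48.0% in treated HCT116. AluY held 45.6% and 43.4%, and LTR12C 59.9% and 58.0%. By this second measure AluS lay below LTR12C in both lines, and its order against AluY differed between the lines.

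**Figure D3:**
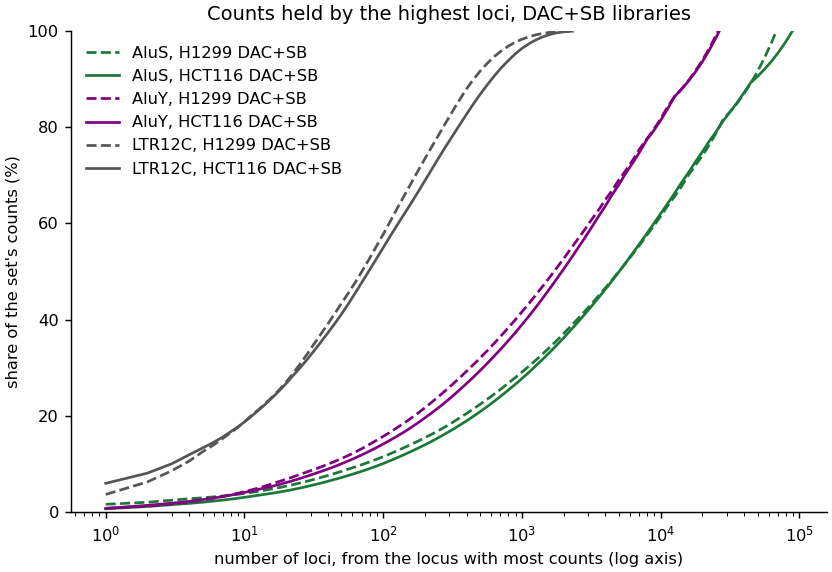
Share of a set's counts (%) held by its loci with most counts, against the number of loci (log axis), for AluS (green), AluY (purple) and LTR12C (grey) in H1299 DAC+SB (dashed) and HCT116 DAC+SB (solid). At 100 loci the AluS curves stand at 11.5% and 10.0% and the LTR12C curves at 57.7% and 55.0%.

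The families differed in how many counts each copy had. Counts per locus with a count ran from 2.26 (AluSx1) to 4.17 (AluSg4) in untreated HCT116, from 2.78 (AluSz6) to 7.39 (AluSg4) in treated HCT116, and from 2.39 (AluSz) to 4.29 (AluSg) in treated H1299. The AluSg4 values rest on locus 5229827: without each family's highest locus AluSg4 had 2.50 in untreated and 5.88 in treated HCT116, and AluSg was highest with 3.40 and 6.45. AluSx and AluSx1, the families with most loci in HCT116 DAC+SB (14166 and 12900), had 4.20 and 3.78 counts per locus there. AluSq4, with 381 loci, had 7.25. AluSg, with 9282 loci there, had both the most counts of the 17 families and 6.57 counts per locus, so that counts per copy did not follow the number of loci alone.

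Most AluS loci were seen in 1 cell of a library, as were most loci of other TEs. The share was 80.2% of loci in untreated HCT116, 62.9% in treated HCT116 and 69.0% in treated H1299. For AluY it was 81.1%, 61.8% and 60.7%, and for TE loci other than AluS 61.3%, 57.8% and 54.9%. LTR12C went the other way, at 47.9%, 2.68% and 5.71%. Of the pairs of an AluS locus and a cell, 36752, 242739 and 142779 in the same order, 71.3%, 67.4% and 75.3% had 1 count. Among loci seen in a single cell, 21.6%, 19.4% and 14.8% had 2 or more counts there. For AluY this share was 12.2%, 14.3% and 11.2%. For LTR12C it was 17.0%, 3.23% and 5.56%, of only 336, 62 and 126 such loci. The sources used here do not say whether a count is a molecular identifier. Counting each locus once per cell left the HCT116 treatment ratio at 3.08 and took the ratio between the treated lines from 1.58 to 1.42.

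The copies with a count overlapped in part between libraries. Overlap was taken for AluS, AluY and LTR12C only, so these values do not say how AluS stands against all TE loci. Over families listed in both treated libraries, 28959 loci had a count in both, which is 42.5% of the 68179 in H1299 and 33.6% of the 86126 in HCT116. Among loci with at least 100 counts, 69 were shared, 57.0% of 121 in H1299 and 22.8% of 302 in HCT116. After thinning to equal totals 44 were shared, 78.6% of 56 and 14.6% of 302. AluY overlapped in part as well, with 46.0% of its H1299 and 45.3% of its HCT116 loci with a count shared, and 42.9% and 50.9% of those with at least 100. For LTR12C 98.3% and 93.9% of loci with a count were shared. At so few counts per AluS locus a copy can be missed at this depth, so a locus without a count in a library is not shown to be silent there.

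The counts of abundant copies in the treated lines were set side by side. Over the 354 AluS loci with at least 100 counts in either treated library, Pearson's r of the log2 counts was 0.06 and Spearman's rho 0.08. Over 1106 LTR12C loci taken by the same rule, r was 0.53 and rho 0.55. Taking loci that are high in either library lowers such a value, and of the AluS loci most entered through HCT116 alone, so no conclusion is drawn from the AluS value. Loci of 1 family also share sequence. Of the 100 AluS loci with most counts in each treated library, 43 were the same, and no such number was taken for other elements.

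With treatment in HCT116, 10126 loci of the 12 shared families had a count in both libraries, 44.2% of the 22918 in DMSO and 15.2% of the 66477 in DAC+SB. The shares were 46.8% and 11.3% for AluY, close to those of AluS, and 99.9% and 30.3% for LTR12C. Among loci with at least 10 counts, 522 were shared, 72.5% of the 720 in DMSO. Of the 100 AluS loci with most counts in DMSO, 37 were among the 100 with most in DAC+SB, again with no such number for other elements. This comparison and that of the treated lines share the HCT116 DAC+SB library.

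Single copies with enough counts were mostly higher with DAC+SB in HCT116, as were single copies of other elements. Loci were taken if they had 100 counts or more in whichever of the 2 libraries showed the higher CPM. Of 269 such AluS loci, 230 (85.5%) were at least 4-fold higher in DAC+SB and 1 was at least 4-fold lower. Over all 1999 TE loci taken in this way 94.2% were higher and 0.35% lower. The median log2 ratio was 4.57 for AluS loci and 6.94 for all, with a locus at 0 set to 3 counts. The AluS share thus lay below that of all TE loci at this minimum, where LTR12C made up 988 loci with 985 higher. With a minimum of 20 counts the order turned, with 91.9% of 2624 AluS loci against 90.6% of 6917 TE loci. A locus that entered because of a high DAC+SB count had to be higher there, so these shares describe the libraries and nothing more. Of the 269, 38 (14.1%) had no DMSO count, against 840 of 1999 TE loci (42.0%) with none in the lower library. In H1299 no AluS locus could be examined in this way, since AluSq10 had no locus with 100 counts, while of 1302 TE loci 90.7% were higher and 0.154% lower by that fold.

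The copies with most counts after treatment in HCT116 had been present before it to very different extents. AluSg4 locus 5229827 had 924 counts in DMSO (14.8 CPM, in 151 cells) and 2634 in DAC+SB (67.7 CPM, in 671 cells), a log2 ratio of 2.20 (2.09 to 2.31). AluSx3 locus 2319642 had 38 counts in DMSO (in 12 cells) and 1954 in DAC+SB (in 781 cells), a log2 ratio of 6.37 (5.91 to 6.87), the highest among loci with at least 1000 counts. AluSp locus 1694931 had 515 and 1585 counts (2.31, 2.16 to 2.45). The first and last of these were thus among the abundant AluS copies of untreated cells, whereas the AluSx3 copy had fewer counts there, though still far above the median of 1 per AluS locus. Of the other loci above 1000 counts in HCT116 DAC+SB, AluSx loci 5052295 and 2419352 had 71 and 95 counts in DMSO and 1009 and 1002 in DAC+SB, log2 ratios of 4.52 and 4.09. AluSg locus 2310512 had 184 and 1099 counts (3.26, 3.04 to 3.50).

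Some abundant copies of untreated HCT116 were not higher after treatment. AluSq2 locus 151965, the AluS copy with most counts in HCT116 DMSO, had 1382 counts there (22.1 CPM, in 595 cells) and 789 in DAC+SB (20.3 CPM, in 444 cells), a log2 ratio of -0.12 (-0.25 to 0.00). AluSx1 locus 4210291 had 666 and 432 counts (10.6 and 11.1 CPM), a log2 ratio of 0.06 (-0.12 to 0.24). The intervals of both reach 0, while their families were 6.73-fold and 7.34-fold higher. AluSx1 locus 6577891 was the copy past 4-fold in the other direction, with 146 counts in DMSO and 14 in DAC+SB, a log2 ratio of -2.70 (-3.60 to -1.90). The next lowest ratios at that minimum were -1.03 for AluSx1 locus 2989627 (105 and 32 counts), -0.79 for AluSq2 locus 572005 (153 and 55), -0.67 for AluSx3 locus 6345801 (166 and 65) and -0.51 for AluSx locus 2747598 (201 and 88). With a minimum of 20 counts, 14 of 2624 AluS loci were at least 4-fold lower, against 28 of 6917 TE loci.

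**Figure D4:**
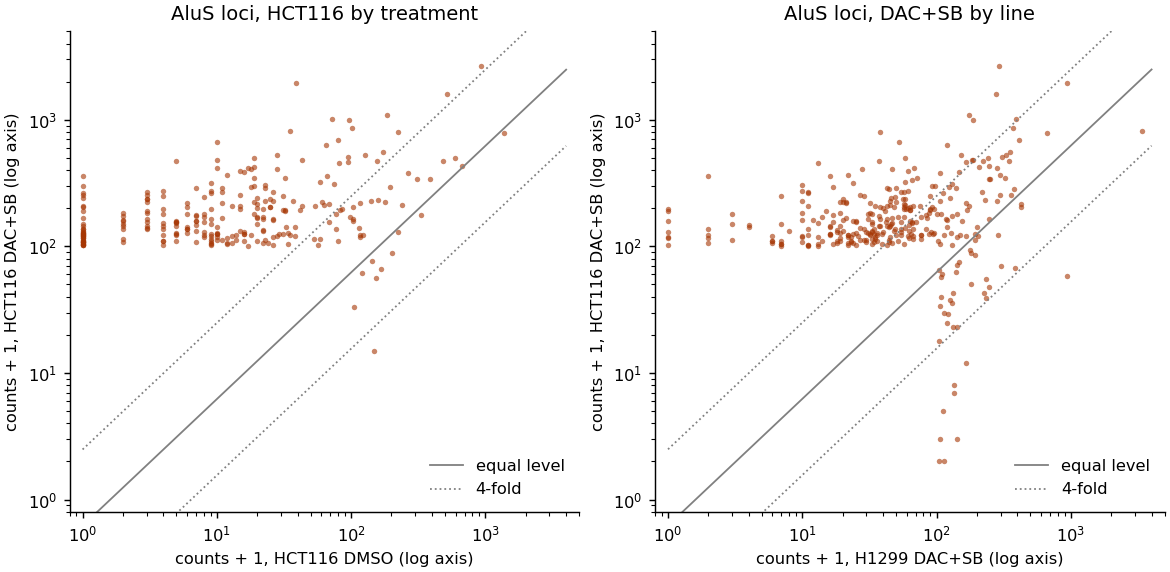
Counts plus 1 of single AluS loci on log axes, for HCT116 DAC+SB against HCT116 DMSO (left, 269 loci) and against H1299 DAC+SB (right, 338 loci), for loci with 100 counts or more in the library with the higher CPM. The solid line marks equal CPM and the dotted lines 4-fold; on the left 230 points lie above the upper dotted line and 1 below the lower, on the right 210 and 9.

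Copies that differed between the treated lines leaned toward HCT116. Of 338 AluS loci taken by the same minimum, 210 (62.1%) were at least 4-fold higher in HCT116 DAC+SB and 9 (2.66%) in H1299 DAC+SB. Over all 2492 TE loci these shares were 39.1% and 6.86%, and the median log2 ratio was 1.36, against 2.50 for AluS loci. Of 87 AluY loci, 23 were higher in HCT116 and 13 in H1299. A locus that entered through a high count in 1 line had to be higher there, and the same counts make up the family values, so these shares are a description and add no support to them.

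The AluS copies with most counts in treated H1299 went against this lean or varied in it. AluSp locus 2447104 had 3397 counts in H1299 DAC+SB (54.4 CPM, in 762 cells), 34 in untreated HCT116 and 810 in treated HCT116 (20.8 CPM, in 311 cells). It alone held 10.4% of the AluSp counts of H1299 DAC+SB, and its log2 ratio of HCT116 to H1299 was -1.39 (-1.50 to -1.28). AluSc8 locus 5342019 had 931 counts in H1299 DAC+SB and 57 in HCT116 DAC+SB (-3.35, -3.76 to -2.96), and held 10.2% of AluSc8 counts in H1299. AluSx3 locus 2319642, described above, had 939 counts in H1299 DAC+SB and was higher in HCT116 by 1.74 (1.63 to 1.85). The first and the second of these copies were thus higher in H1299 although their families were higher in HCT116. All 3 were picked by their counts in treated H1299, which favours a higher value there, so this is a description only.

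A few copies had counts almost entirely in 1 treated library. Of the 338 loci, 7 had no count in H1299 DAC+SB and between 101 and 196 in HCT116 DAC+SB. These were 2.07% of the AluS loci taken, near the 1.69% (42 of 2492) of all TE loci with no count in the lower library. The highest were AluSx4 locus 1606322, with 196 counts in 78 cells, and AluSx locus 2531120, with 190 in 78 cells. Against a floor of 3 counts per library these were at least 104.8-fold and 101.6-fold higher in HCT116. AluSg locus 1942721 had 158 counts (at least 84.5-fold). In untreated HCT116 these 3 had 14, 2 and 4 counts. Among loci with a count in both treated libraries, AluSp locus 2308191 had 1 count in H1299 DAC+SB and 361 in HCT116 DAC+SB, in 125 cells, with a counting interval of the log2 ratio from 6.69 to 14.5. AluSp locus 3246835 had 1 and 135 counts (5.26 to 13.1), and AluSg4 locus 1009281 had 1 and 122 (5.11 to 12.9). The last 3 loci had 0, 1 and 0 counts in HCT116 DMSO. In the other direction, AluSz locus 4223189 had 113 counts in H1299 DAC+SB and 1 in HCT116 DAC+SB (interval -11.5 to -3.63). AluSx1 locus 2727588 had 104 and 1 (-11.3 to -3.51), and AluSq locus 2527034 had 141 and 2 (-8.52 to -3.58). The last of these had 75 counts in untreated HCT116.

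In H1299 DMSO the copies with most counts were AluSq10 loci and were small. Locus 1373513 had 21 counts in DMSO, 20 of them in the class listed in both libraries, and 10 in DAC+SB. Over that class its log2 ratio was -0.95 (-2.21 to 0.21). Locus 5610692 had 19 counts in DMSO, 8 of them in that class, and 3 in DAC+SB (-1.37, -3.92 to 0.69). Both intervals include 0. Locus 2073099 had 9 and 57 counts, all in that class (2.71, 1.69 to 3.91), and was higher with DAC+SB by more than counting error.

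AluS RNA was found in nearly every treated cell and its share per cell varied widely. Each cell was thinned to 3300 counts to compare cells of unlike depth, which left out 402 HCT116 DAC+SB cells. The median AluS share of a cell's counts was then 0.0606% (interquartile range 0.0303 to 0.121) in untreated and 0.636% (0.273 to 1.30) in treated HCT116, and 0.273% (0.152 to 0.424) in treated H1299. In untreated H1299 it was 0 (0 to 0), over the 1 family listed. From all counts of each cell these medians were 0.0698%, 0.621%, 0.264% and 0. These values sum 17 families in treated and 12 in untreated HCT116. Over the 12 families listed in both, the medians were 0.485% (0.212 to 1.03) and 0.0606% (0.0303 to 0.121). The lower quartile of treated HCT116 cells lay above the upper quartile of untreated ones over these 12 families too, and over all listed families the interquartile ranges of the treated lines overlapped.

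After thinning, 3103 of 3658 untreated HCT116 cells (84.8%, 83.6 to 86.0) and 3875 of 3925 treated ones (98.7%, 98.3 to 99.1) had an AluS count. Of 3726 treated H1299 cells all but 39 had one, and of 3578 untreated ones 57 did (1.59%, 1.21 to 2.06). Before thinning the shares were 99.2%, 99.4%, 99.9% and 8.36% in this order, at median depths of 16257.5, 8449, 15784.5 and 17369.5 counts. No cell type without Alu elements was analysed here, and counts from free RNA were not measured. A thinned cell had a median of 2 AluS counts over 2 loci in untreated HCT116, 21 over 17 in treated HCT116 and 9 over 8 in treated H1299, so that most AluS counts of a cell came from different copies.

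A tail of cells carried far more. The 99th percentile of the AluS share was 0.576% in untreated HCT116, 7.82% in treated HCT116 and 1.67% in treated H1299, and the highest cells reached 3.12%, 26.3% and 15.0%. The highest cell of HCT116 DAC+SB had 867 AluS counts among its 3300. The 5% of cells with the highest share held 25.9%, 29.2% and 20.4% of thinned AluS counts in the same order. For the LTR12 group these values were 30.6%, 18.5% and 18.5%. For AluY they were 48.4%, 29.6% and 22.4%, the first without the family named AluY, which was unlisted in untreated HCT116. In treated HCT116 the AluS counts were thus more unevenly spread over cells than the LTR12 counts, and about as unevenly as the AluY counts.

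**Figure D5:**
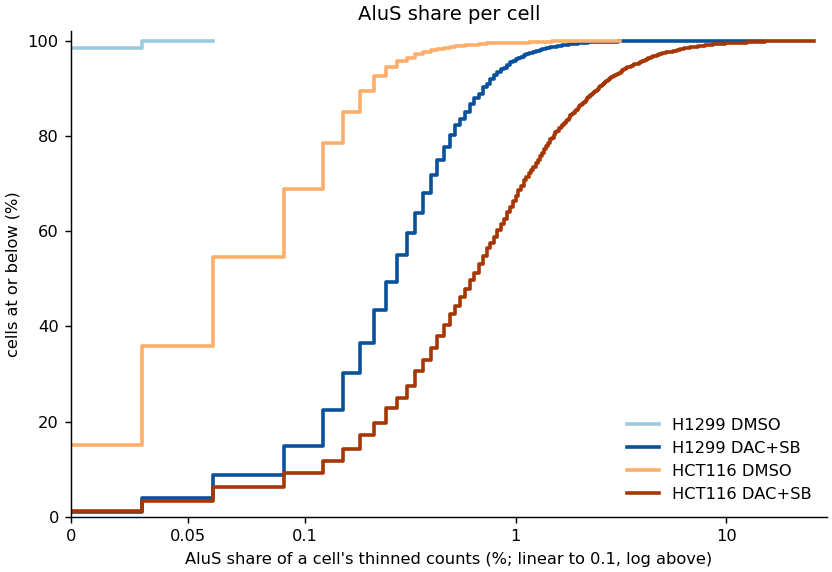
Cumulative share of cells (%) against the AluS share of a cell's counts after thinning to 3300 counts (%, linear to 0.1 and logarithmic above), with 1 line per library. The medians are 0.0606% and 0.636% in HCT116 and 0 and 0.273% in H1299, DMSO first, and the HCT116 DAC+SB line extends to 26.3%.

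In the treated libraries, cells high in AluS were high in AluY. In HCT116 DAC+SB, Pearson's r of the AluS and AluY shares over 3925 thinned cells was 0.92 and Spearman's rho 0.85. In H1299 DAC+SB they were 0.85 and 0.66 over 3726 cells, and in HCT116 DMSO 0.32 and 0.12 over 3658. The family named AluY, with 73726 of the 101888 AluY counts of HCT116 DAC+SB, was unlisted in HCT116 DMSO. The DMSO values thus cover only other AluY families and are not like for like with the treated ones. With the LTR12 share they were 0.07 and 0.17 in HCT116 DAC+SB and 0.20 and 0.27 in H1299 DAC+SB, and with L1 elements 0.01 and 0.17, and 0.08 and 0.12. Cells of 1 library share its preparation, and AluS and AluY copies are alike in sequence.

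The 196 HCT116 DAC+SB cells with the highest AluS shares had a median of 5.15% AluS, against 0.576% in the other 3729. Their median AluY share was 1.27% against 0.152%, and their LTR12 share 2.85% against 2.48%. Their median total was 7952 counts against 9208, and their median mitochondrial share 19.7% against 17.7%. In treated H1299 the 186 highest cells had a median of 1.21% AluS against 0.242%. Their AluY share was 0.515% against 0.0909%, their LTR12 share 2.79% against 1.48% and their mitochondrial share 8.26% against 8.92%. In untreated HCT116, where the family named AluY was unlisted, the median AluY share was 0 in both groups of cells. AluS loci with a count in treated HCT116 numbered 74992 without the 196 cells, of 88965, and the HCT116 treatment ratio without the highest 5% of cells in each library was 3.04. Of the 1086 HCT116 DAC+SB cells above 25% mitochondrial counts, 795 were deep enough to be thinned. These 795 had a median AluS share of 0.636%, the same as the other 3130 thinned cells of that library.

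The genes of proteins that bind, edit, sense or transcribe Alu RNA had a median below their DMSO level in both lines, as all genes had. A list of 41 symbols of such genes had 40 in the table. The absent symbol, RO60, names the same gene as TROVE2, which was present, so no gene was missing. All 40 reached 100 counts in at least 1 library of each line. In H1299 1 was higher and 4 were lower by 2-fold or more, and the median log2 ratio was -0.37. Over all 14610 genes taken in the same way 18.3% were higher and 7.34% lower, with a median of -0.07. In HCT116 1 of the 40 was higher and 10 lower, with a median of -0.63, against 16.3% and 20.1% of 13451 genes and a median of -0.24. The numbers of lower genes lay near the shares over all genes and are not read as a result about the list. Gene counts in polyadenylated RNA say nothing about the level of the proteins. A gene's ratio sums every listed feature of the gene, including any listed in 1 library of a line. Over features listed in both, the genes named below that moved were ADAR (-1.82) and IFIH1 (0.02) in HCT116 and SRP68 (-0.80) in H1299.

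ADARB1 (chromosome 21, 45073853 to 45226560 on GRCh38), a deaminase that edits adenosine to inosine in double-stranded RNA, was the gene that was higher. It had 438 counts in H1299 DMSO and 1870 in DAC+SB, a log2 ratio of 2.14 (1.99 to 2.30), and 370 and 640 in HCT116 (1.48, 1.29 to 1.67). ADAR (chromosome 1, 154582057 to 154628013), the main editor of Alu RNA, went the other way, from 96.3 to 58.7 CPM in H1299 (-0.71, -0.77 to -0.65) and from 122 to 38.6 CPM in HCT116 (-1.66, -1.74 to -1.58). EIF2AK2 (chromosome 2, 37099210 to 37157065), a kinase activated by double-stranded RNA, went from 68.2 to 27.1 CPM in H1299 (-1.33) and from 69.2 to 10.2 CPM in HCT116 (-2.77, -2.92 to -2.62). IFIH1, a sensor of long double-stranded RNA, had -0.18 (-0.46 to 0.11) and -0.20 (-0.68 to 0.26), intervals that include 0. DICER1, which cuts double-stranded RNA, had -1.03 and -1.29.

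SRP9 (chromosome 1, 225777813 to 225790466) and SRP14 form the pair of proteins that binds the Alu fold of 7SL RNA and of Alu RNA. SRP14 was nearly level, at 560 and 550 CPM in H1299 (-0.03) and 495 and 484 CPM in HCT116 (-0.03). SRP9 was lower, at 87.8 and 53.7 CPM in H1299 (-0.71, -0.77 to -0.65) and 89.3 and 40.3 CPM in HCT116 (-1.15, -1.23 to -1.07). HNRNPC, which binds transcribed Alu sequence in introns and limits its use as an exon, had -0.41 and -0.97. The RNA-binding gene NONO (-0.39 and -1.16), and SRP72 of the signal recognition particle (-0.73 and -1.11), were also lower. Other genes of that particle varied. SRP68 had -0.36 and -0.41, SRP54 had 0.28 and 0.50, and SRP19 had -0.34 in H1299 and 0.49 in HCT116.

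Among genes of the RNA polymerase III machinery, POLR3E, a subunit of the enzyme, had -1.39 in H1299 and -1.50 in HCT116. GTF3C6 and GTF3C2, subunits of the factor TFIIIC that binds the internal promoter, had -0.98 and -0.56 in H1299 and -1.90 and -1.17 in HCT116. POLR3G, an alternative subunit of the enzyme, had -0.29 and -0.85. MAF1, the repressor of the enzyme, had -0.42 and -0.98. No listed gene of the enzyme or of TFIIIC was thus 2-fold higher in either line.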

How the data were processed

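The deposited data are 2 tables of counts in whole numbers, for genes and for TE loci, with a feature, a cell and a count in each line. The submitters' processing notes name CASAVA, STAR and GRCh38 (hg38), with no role or version. The sources used here do not say whether the deposited counts are of molecular identifiers, how reads were assigned to loci or which cells were kept. TE identifiers hold a family, a number and a locus, with no coordinates, so no AluS copy was placed in the genome. Gene positions are from GENCODE on GRCh38, matched by symbol. No doublets were called.

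Cells with at least 500 counts were kept, which kept all 15289, and each was assigned to its library by its name. A level is the sum of a library's counts over its gene and TE total. Ratios carry exact conditional binomial intervals, shares Clopper-Pearson and levels Poisson intervals, all at 95% and for counting error only. Reads without molecular identifiers would not be independent molecules. Libraries were thinned to 38927267 counts and cells to 3300 by hypergeometric draws. A locus was compared from 100 counts in the library with the higher level, a locus at 0 being set to 3 counts.

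All AluS families were named. Loci were named if they were among the 3 with most counts in a library, the 5 with the highest ratio from 1000 counts, or the 5 with the lowest from 100 counts. As an addition to the plan, the 3 most extreme loci in each direction between the treated lines among those with a count in both were named from 100 counts, and the 3 highest of those at 0 in H1299. Genes were named from a list by a fixed choice or a 2-fold change, and 1 result under this rule is not reported here. The members, the lists and the tests were chosen with earlier results of these data known. The plan had been to sum every listed class. AluS ratios were instead taken over classes listed in both libraries, because of the unlisted families. Ratios of TE families and AluY families given for comparison sum every listed class. The alternatives changed the classes, the denominator, the cells, the loci and the count minimum. The scripts were tested on simulated data. Python 3.11.15, numpy 2.4.6, scipy 1.17.1, pandas 2.3.3 and matplotlib 3.10.9 were used.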

Additional observations from a re-analysis of the deposited data

How the results depend on the processing

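No paired analysis was possible because each group was 1 library. The alternatives that leave out the cells with the highest AluS share or count each locus once per cell, that take TE counts of the same classes or shares per cell over the families listed in both, and all of those for the treated lines, were chosen after seeing the data.

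Set against TE counts alone, the AluS log2 ratio of DAC+SB to DMSO turned to -1.95 in H1299 (2.01 otherwise) and -1.04 in HCT116 (3.08 otherwise). With the TE counts of the same classes only, these were -1.79 and -0.94, so other TE counts in those classes were higher by more. Over every listed class the H1299 value was 9.38, which sets 16 families against 1. It was 3.25 without the 5% of cells with the highest AluS share, where 299 of 3578 DMSO cells had any AluS count, and 1.72 with each locus counted once per cell.

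The HCT116 ratio was 3.40 over every listed class, 3.76 over classes listed in all 4 libraries (AluSq10 alone), 3.16 against gene counts, 3.14 without the 5% of cells with most counts, 3.01 without cells above 25% mitochondrial counts, 3.13 as a mean over cells and 3.04 without the 5% highest in AluS.

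The ratio between the treated lines, 1.58, was 1.61, 1.80 and 1.62 under the first 3 of these, 1.55 without the mitochondrial cells, 1.60 without the locus with most counts and 1.68 without mitochondrial and ribosomal protein genes. It was 0.74 against TE counts, 0.76 against those of the same classes, 1.41 without the 5% highest in AluS and 1.42 once per cell. Of its 16 families, 1 in place of 2 passed 4-fold without the highest locus of each library or once per cell, choices added after seeing the data.

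After thinning, AluS loci with at least 10 counts numbered 1 and 1801 in H1299 and 384 and 7742 in HCT116, DMSO first. Thinned loci with at least 1 count in the class listed in both libraries numbered 151 in treated H1299. With a minimum of 20 counts, 4 of 5 loci in H1299 (0 of 0 otherwise) and 2411 of 2624 in HCT116 (91.9%, 230 otherwise) were at least 4-fold higher, against 80.0% of 3220 and 90.6% of 6917 TE loci. Over every listed class it was 121 in H1299, all of them in families unlisted with DMSO. Without mitochondrial and ribosomal protein genes the median share per cell was 0.396% in treated H1299 and 0.111% and 1.01% in HCT116. Over the 12 families listed in both HCT116 libraries it was 0.485% in treated HCT116. Where no reason is given the cause was not tested. Of all values recomputed, 46 moved, 4 reversed and 61 stayed within the counting interval, within 1.5 times for counts of loci or within 1 thinned count for shares per cell. AluSq10 in H1299, 0.85 over all its counts, was 0.55 once per cell, and the HCT116 family ratios lay between 2.87 and 3.80 without the top locus and between 2.76 and 4.15 once per cell. Depth limits single copies, since the median AluS locus had 1 count.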

Other observations

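The TE table also holds 7SLRNA, the RNA from which Alu elements derive, which was singled out after its values were seen. It had 1000 counts (16.0 CPM) in untreated and 597 (15.3 CPM) in treated HCT116, a log2 ratio of -0.06 (-0.21 to 0.09), an interval that includes 0. In H1299 it had 585 counts (9.07 CPM) with DMSO and 470 (7.53 CPM) with DAC+SB, a log2 ratio of -0.27 (-0.45 to -0.09). In HCT116, where the 12 AluS families were 6.73-fold to 16.3-fold higher, 7SLRNA thus did not differ from its DMSO level by more than counting error. It was slightly lower with DAC+SB in H1299. 7SL RNA is an RNA polymerase III product, and the libraries were made from polyadenylated RNA, so that these counts are a selected portion of it.

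In untreated HCT116 the AluS and AluY sums were far apart, at 1012 and 56.2 CPM, and in treated HCT116 less so, at 10653 and 2617 CPM. The family named AluY, which held 73726 counts in HCT116 DAC+SB, was unlisted with DMSO, so that the first of these pairs leaves out its largest member. In treated H1299 the sums were 3484 and 1569 CPM.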
